A study of Arabidopsis thaliana with 12 samples.

Results

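The genotype by trans-zeatin interaction asks whether roots of the arr10 arr12 mutant respond to the cytokinin trans-zeatin as wild-type roots do. It is the response of the mutant (trans-zeatin minus DMSO) minus the response of the wild type, on log2 signal, so a negative value means a smaller rise, or a larger fall, in the mutant. The contrast uses all 12 of the 12 Affymetrix ATH1 arrays of Arabidopsis thaliana, 3 in each of 4 groups. It was computed for 22746 of the 22810 probe sets, all but the 64 controls, and tested for the 13647 that lay above a filter on low signal. The other 9099 probe sets lay below that filter.

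The groups were arr10 arr12 with trans-zeatin, arr10 arr12 with DMSO, wild type with trans-zeatin and wild type with DMSO. The mutant carried the insertion alleles SALK_098604 and SALK_054752, and its labels name no ecotype. The wild type was Col-0. Plants had grown upright on agar medium for 2 weeks. The tissue label reads roots, whereas the extraction text speaks of seedlings. The treated arrays are titled TZ for the mutant and CK for the wild type, and the treatment label of both is trans-zeatin. Neither the dose nor the length of treatment is stated in the labels. Nothing says whether the 3 replicates of a group came from separately grown plants, so p-values measure only the spread between these arrays, which may be technical.

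Cytokinins are perceived by histidine kinase receptors, which pass a phosphate through carrier proteins to the type-B response regulators, transcription factors that include ARR10 and ARR12. These switch on early cytokinin genes, among them the type-A response regulators, which damp the pathway. In roots, cytokinin is known for limiting the size of the meristem, for promoting differentiation and for acting against auxin in lateral root formation. ARR10 and ARR12 had no named probe set, so their own transcripts are not reported here. Where the annotation used gives a probe set no gene, the probe set identifier stands in its place.

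Array scale was alike throughout, with a median signal of 39.3 to 41.6 and a trimmed mean of 99.3 to 99.4 on the deposited linear scale. The wild-type DMSO arrays stood apart from the rest. On the first principal component, which held 29.2% of the variance, they lay at 27.3, 18.4 and 14.5, and no other array lay above 3.70. The summed signal of 8 probe sets of the photosynthetic apparatus was 656 to 766 in arr10 arr12 with trans-zeatin, 725 to 804 in arr10 arr12 with DMSO, 931 to 1031 in wild type with trans-zeatin and 1142 to 1324 in wild type with DMSO. PYK10, a root β-glucosidase, averaged 3627 ± 522, 3388 ± 229, 3587 ± 369 and 3794 ± 206 in the same order (SD, n = 3 each). Of the 8 root markers and the 8 shoot markers, 2 of each had a named probe set, PYK10 and EXPA7 for root, and RCA and LHCB4.1 for shoot. EXPA7 averaged 66.8, 78.4, 70.8 and 117 in the same order of groups, and all its wild-type DMSO arrays lay above the others. RCA averaged 146, 142.5, 209 and 213, close in the wild-type groups, and LHCB4.1 averaged 207, 199.7, 264.5 and 298.5. The root markers thus differed in pattern, and whether root content was equal between groups was not tested. The interaction takes the wild-type DMSO group once in every estimate, so what sets those arrays apart enters every interaction and wild-type response below. The part of that difference in the results was not tested. In bulk samples fewer cells of a type and less RNA per cell cannot be told apart.

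Only 5 probe sets passed the interaction test, and 4 of these had the weaker rise in the mutant. With limma and Benjamini-Hochberg adjustment, 5 of 13647 lay under an adjusted p of 0.05 (0.0366%), 4 negative (0.0293%) and 1 positive (0.00733%). At an unadjusted p under 0.05 there were 1476 (10.8%), of which 874 were negative (6.4%) and 602 positive (4.41%). The responses themselves passed for 163 probe sets in the mutant (1.19%) and 1167 in the wild type (8.55%). A response past the threshold in the wild type and not in the mutant is not by itself a difference between them. The one named gene among the 5 was EXPA15, an expansin, a protein that loosens the cell wall as cells enlarge.

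EXPA15 (266770_at, AT2G03090) had signals of 785, 790 and 896 in arr10 arr12 with trans-zeatin, 710, 718 and 666 in arr10 arr12 with DMSO, 932, 1072 and 1123 in wild type with trans-zeatin, and 375, 404 and 448 in wild type with DMSO. Every wild-type trans-zeatin array lay above the other 9 arrays and every wild-type DMSO array below them, with the mutant arrays in between. The response was 0.24 in the mutant (limma adjusted p = 0.35) and 1.33 in the wild type (1.05e-06). The interaction was -1.10 ± 0.13 (SE; 95% interval -1.38 to -0.81; limma adjusted p = 0.00307). Between genotypes, EXPA15 was higher in the mutant under DMSO by 0.76 (limma adjusted p = 3.88e-04), whereas under trans-zeatin the difference of -0.34 did not pass (0.0824). The genotypes thus differed more under DMSO than under trans-zeatin. Leaving out wild-type DMSO replicate 1, 2 or 3 gave -1.04, -1.09 and -1.17, and each passed.

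The largest interaction belonged to 264470_at, which has no gene name in the annotation used. Its signal was 90.9, 88.9 and 94.3 in arr10 arr12 with trans-zeatin, 54.4, 43.4 and 46.0 in arr10 arr12 with DMSO, 762, 824 and 705 in wild type with trans-zeatin, and 163, 99.8 and 94.9 in wild type with DMSO. The wild-type trans-zeatin arrays lay far above all others and the mutant DMSO arrays below all others. The mutant did respond, by 0.85 (limma adjusted p = 0.00996), against 2.65 in the wild type (1.34e-07), which left an interaction of -1.80 ± 0.22 (SE; 95% interval -2.26 to -1.35; adjusted p = 0.00307). Without wild-type DMSO replicate 1, the brightest of its group, the interaction was -2.04.

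The same shape, a rise seen in the wild type and smaller in the mutant, held for both other negative calls. The probe set 264790_at had signals of 163, 208 and 185 in arr10 arr12 with trans-zeatin, 126, 108 and 108 in arr10 arr12 with DMSO, 457, 536 and 506 in wild type with trans-zeatin, and 109, 139 and 133 in wild type with DMSO. The genotypes overlapped under DMSO and were far apart under trans-zeatin. The mutant response was 0.67 (limma adjusted p = 0.00792) and the wild-type response 1.93 (1.34e-07), an interaction of -1.26 ± 0.16 (SE; adjusted p = 0.0033).

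For 252858_at the signals were 70.5, 86.9 and 91.7 in arr10 arr12 with trans-zeatin, 62.6, 88.5 and 67.1 in arr10 arr12 with DMSO, 212, 223 and 245 in wild type with trans-zeatin, and 76.8, 72.0 and 66.0 in wild type with DMSO. Only the wild-type trans-zeatin arrays stood clear of the rest. The mutant response of 0.18 did not pass (limma adjusted p = 0.733), the wild-type response was 1.57 (2.88e-06), and the interaction was -1.39 ± 0.18 (SE; adjusted p = 0.0033). Under DMSO the genotypes differed by 0.01, with an adjusted p of 0.979.

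The positive call, 267461_at, differed in form. Its signal was 1565, 1398 and 1336 in arr10 arr12 with trans-zeatin, 1215, 1317 and 1263 in arr10 arr12 with DMSO, 1219, 1290 and 1460 in wild type with trans-zeatin, and 1934, 2178 and 2384 in wild type with DMSO. The 3 wild-type DMSO arrays lay above the other 9, which overlapped one another. The response was 0.18 in the mutant (limma adjusted p = 0.59) and -0.71 in the wild type (2.10e-04), and the interaction was 0.88 ± 0.14 (SE; 95% interval 0.60 to 1.17; adjusted p = 0.0212). Under trans-zeatin, where the wild-type DMSO arrays play no part, the genotypes differed by 0.12 with an adjusted p of 0.691. This call was lost without any 1 of 7 arrays, among them wild-type DMSO replicate 2 (0.88, adjusted p = 0.104) and replicate 3 (0.81, adjusted p = 0.0568).

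**Figure D1:**
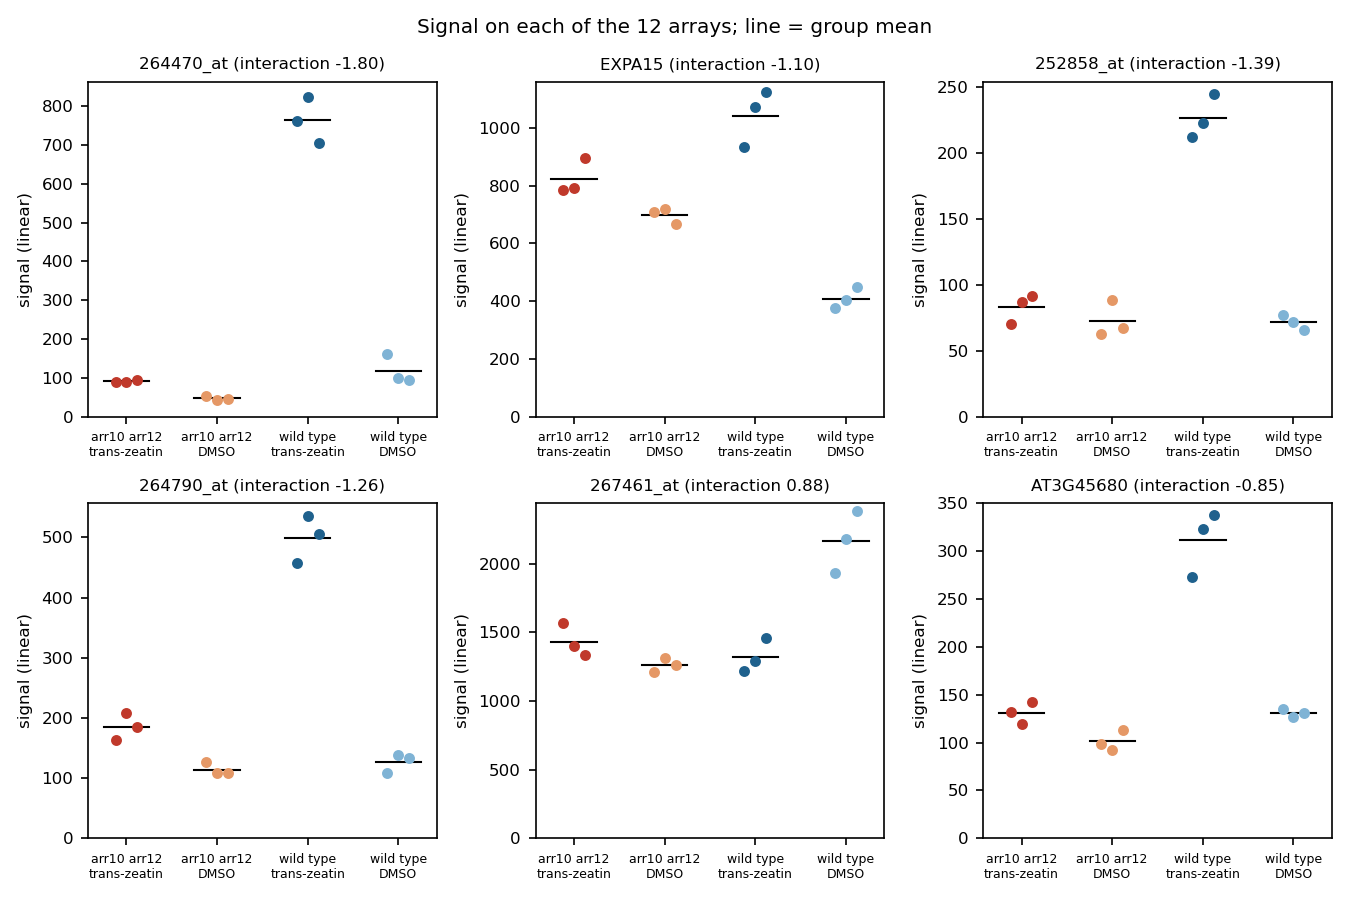
Signal on the deposited linear scale (y axis) of the 5 probe sets that passed the interaction test and of AT3G45680, the named gene next in order of p with a negative interaction, which did not pass. Each point is 1 array, each line a group mean of 3 arrays, and the groups run from arr10 arr12 with trans-zeatin to wild type with DMSO; wild type with trans-zeatin is the high group in 4 of the first 5 panels, and wild type with DMSO in the panel of 267461_at.

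The precision of the contrast sets what could be called. The interaction combines 4 group means, and its median standard error was 0.165, against 0.117 for the wild-type response alone, with a median 95% interval of ±0.35. The middle of the distribution lay near 0: the 5th, 50th and 95th percentiles were -0.398, -0.023 and 0.368. Of the 16 probe sets with an interaction of at least 1 on the log2 scale, in either direction, 10 were negative, 4 passed and 12 did not. The largest that did not pass was that of AT4G15680 at -1.34, and the smallest that passed was that of 267461_at at 0.88.

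**Figure D2:**
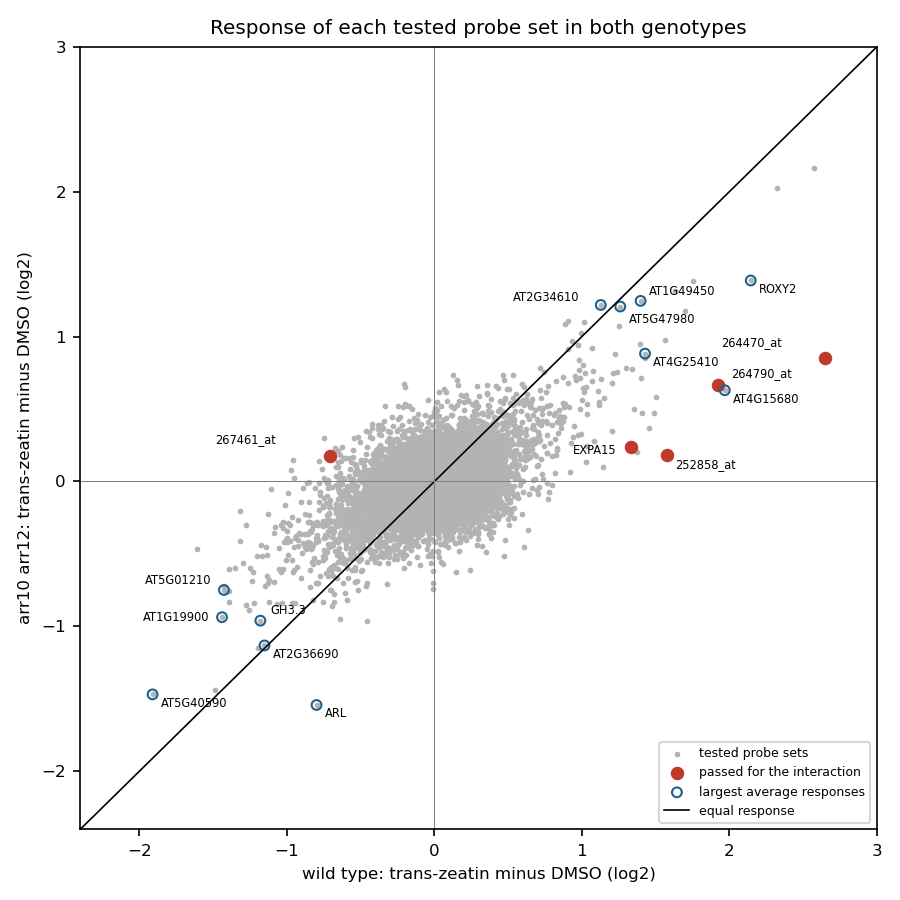
Log2 response to trans-zeatin of the 13647 tested probe sets in arr10 arr12 (y axis) and in wild type (x axis), with the line of equal response. The 4 negative calls, in red, lie below the line at wild-type responses of 1.33 to 2.65, the positive call lies above it at -0.71, and the 12 named genes with the largest response averaged over both genotypes are circled. Unnamed probe sets, including the unnamed red ones, were not candidates for a circle.

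Named genes next in order of p did not pass, and their values are given as measurements. The negative one closest to passing was AT3G45680, a gene of the NPF family, whose proteins carry nitrate, peptides and other small molecules across membranes, at -0.85 ± 0.15 (SE; limma adjusted p = 0.0723). It had 132, 120 and 142 in arr10 arr12 with trans-zeatin, 98.6, 92.8 and 113 in arr10 arr12 with DMSO, 274, 323 and 338 in wild type with trans-zeatin, and 136, 127 and 131 in wild type with DMSO. The wild-type trans-zeatin arrays lay above all others. It passed under 5 of the 25 alternative settings.

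AT2G40230, a BAHD acyltransferase, an enzyme class that esterifies plant secondary metabolites, had an interaction of -0.93 (limma adjusted p = 0.101). Its signal averaged 100 ± 12.0 in arr10 arr12 with trans-zeatin, 70.6 ± 11.7 in arr10 arr12 with DMSO, 168 ± 16.8 in wild type with trans-zeatin and 59.1 ± 1.90 in wild type with DMSO (SD, n = 3 each). The remaining negative named genes ran from -0.65 to -0.83, with adjusted p from 0.113 to 0.145. They were AT2G32220, a ribosomal protein family gene (-0.80), AT1G08590, a receptor-like kinase (-0.71), DOMINO1 (AT5G62440; -0.65), AT2G19080, a metaxin-related gene of the mitochondrial outer membrane (-0.83), AT3G45090 (-0.77), AT4G21140 (-0.69) and AT1G53060, of the legume lectin family (-0.80).

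These genes were not of one form. AT1G53060 had 28.9 ± 4.41 in arr10 arr12 with trans-zeatin, 22.5 ± 2.09 in arr10 arr12 with DMSO, 53.3 ± 2.64 in wild type with trans-zeatin and 21.8 ± 3.29 in wild type with DMSO (SD, n = 3 each), so its wild-type trans-zeatin group was the high one. DOMINO1 had 152 ± 11.3, 178 ± 3.40, 163 ± 8.87 and 121 ± 9.64 in the same order, so its wild-type DMSO group was the low one. AT2G19080 had 151 ± 19.8, 214 ± 28.4, 208 ± 25.5 and 162 ± 18.5, with opposite estimated responses of -0.49 in the mutant and 0.35 in the wild type, neither of which passed (limma adjusted p = 0.0851 and 0.104).

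With a positive sign, the 10 named genes of smallest p had adjusted p from 0.113 to 0.169. AT5G62360, of the pectin methylesterase inhibitor family, had the largest at 1.14 ± 0.22 (SE; limma adjusted p = 0.113). Its signal was 47.7, 33.6 and 43.3 in arr10 arr12 with trans-zeatin, 57.0, 59.1 and 62.4 in arr10 arr12 with DMSO, 22.8, 26.7 and 30.5 in wild type with trans-zeatin, and 127, 82.1 and 80.8 in wild type with DMSO. The wild-type arrays were the highest under DMSO and the lowest under trans-zeatin, with the mutant between. The wild-type fall of -1.61 passed (limma adjusted p = 1.6e-05) and the mutant value of -0.47 did not (0.221).

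AT4G34600, which encodes CIF2, a peptide that acts in sealing the Casparian strip of the root endodermis, had an interaction of 0.77 (limma adjusted p = 0.113). It averaged 236 ± 40.6 in arr10 arr12 with trans-zeatin, 230 ± 9.45 in arr10 arr12 with DMSO, 153 ± 12.5 in wild type with trans-zeatin and 262 ± 2.65 in wild type with DMSO (SD, n = 3 each). Its wild-type trans-zeatin arrays lay below the other 9. RALFL32, a peptide of the RALF signalling family, had the same form with 707 ± 124, 628 ± 61.5, 476 ± 9.63 and 714 ± 64.8 in that order and an interaction of 0.73. The others were AT3G47510 (1.11), AT1G31050, a bHLH transcription factor (0.86), AT3G45730 (0.79), AT1G25230, of the purple acid phosphatase family (0.78), AT5G10580 (0.71), AT5G43180 (0.71) and AT2G04690 (0.56). In 7 of these 10 the wild-type trans-zeatin group had the mean farthest from the other 3 groups.

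**Figure D3:**
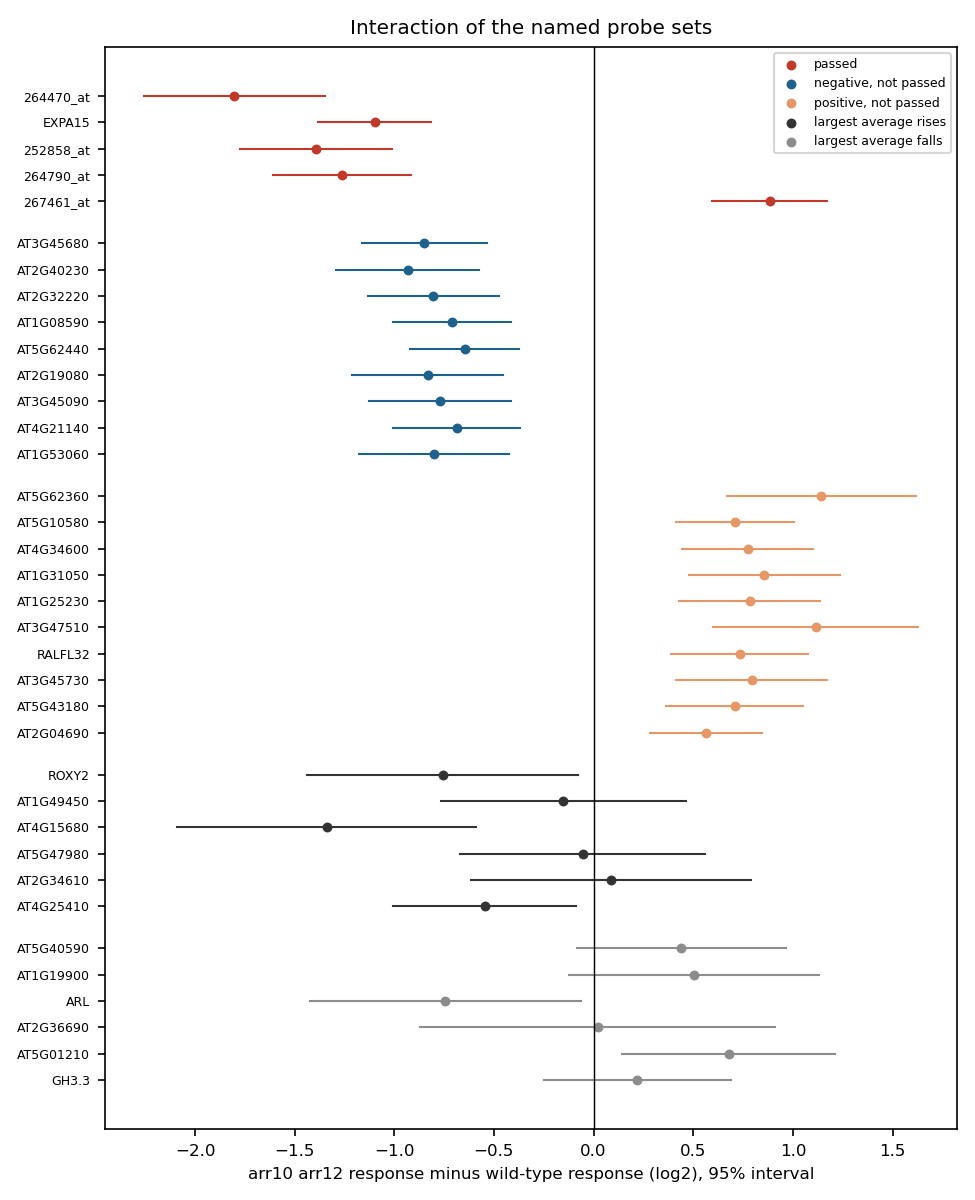
Interaction on the log2 scale (x axis, arr10 arr12 response minus wild-type response) with its 95% interval for the 5 probe sets that passed, the named genes next in order of p in each direction, and the 12 named genes with the largest average response. Intervals of the 5 calls lie beyond 0.59 on either side of 0, and 7 of those 12 named genes have intervals that include 0.

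The 6 largest rises and 6 largest falls averaged over both genotypes, among probe sets with a named locus, were chosen on a contrast whose estimate is independent of the interaction in this balanced design. That average response passed for 1156 probe sets (8.47%), and none of the 12 named genes passed for the interaction. Probe sets without a gene name were left out of this choice, among them 264470_at and 264790_at, which passed for the interaction and had average responses of 1.75 and 1.30, within the range of the named rises. Among the 6 named rises, the interaction of AT1G49450 was -0.15 (95% interval -0.77 to 0.46), that of AT5G47980, a BAHD acyltransferase, -0.05 (-0.67 to 0.56), and that of AT2G34610 0.09 (-0.61 to 0.79). Such intervals leave room for a sizeable difference in either direction.

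The other 3 rises had intervals below 0. ROXY2, a plant-specific CC-type glutaredoxin, had an interaction of -0.76 (-1.44 to -0.08; limma adjusted p = 0.417) and AT4G25410, a bHLH factor, one of -0.55 (-1.004 to -0.09; 0.399). AT4G15680, another glutaredoxin, had 45.4, 26.4 and 31.8 in arr10 arr12 with trans-zeatin, 23.2, 14.2 and 21.9 in arr10 arr12 with DMSO, 74.8, 154 and 114 in wild type with trans-zeatin, and 36.1, 17.7 and 18.5 in wild type with DMSO. The wild-type trans-zeatin arrays were the highest but differed among themselves, and its interaction of -1.34 had an SE of 0.35 (95% interval -2.09 to -0.59; adjusted p = 0.235).

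Among the 6 named falls, ARL, a gene that promotes organ growth through cell expansion, was the one with the larger fall in the mutant. It averaged 34.4 ± 8.11 in arr10 arr12 with trans-zeatin, 117 ± 44.5 in arr10 arr12 with DMSO, 94.3 ± 22.5 in wild type with trans-zeatin and 169 ± 39.6 in wild type with DMSO (SD, n = 3 each). The response was -1.54 in the mutant and -0.80 in the wild type, both passing, and the interaction of -0.74 did not pass (95% interval -1.43 to -0.06; limma adjusted p = 0.425). Without arr10 arr12 DMSO replicate 3, the brightest of its group, the interaction of ARL was -0.47. For AT5G01210, a BAHD acyltransferase, the interaction was 0.68 (0.14 to 1.21), for AT1G19900 0.50 (-0.13 to 1.13), for AT5G40590 0.44 (-0.08 to 0.96), for GH3.3, which conjugates auxin to amino acids, 0.22 (-0.25 to 0.69), and for AT2G36690 0.02 (-0.87 to 0.91).

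Of 10 type-A response regulators listed, 2 had a named probe set, and both lay below the filter. They are given from a fit of all 22746 probe sets, in which 4 probe sets passed (0.0176%), neither of these 2 among them. ARR16 (listed as RR16, AT2G40670) had signals of 4.56, 9.43 and 9.07 in arr10 arr12 with trans-zeatin, 2.96, 0.123 and 3.297 in arr10 arr12 with DMSO, 63.8, 71.7 and 61.3 in wild type with trans-zeatin, and 11.9, 8.27 and 3.75 in wild type with DMSO. The wild-type trans-zeatin arrays were far above the other 9, which lay at the dim end of the scale. Its response was 0.71 in the mutant (limma adjusted p = 0.253) and 2.34 in the wild type (7.49e-05). The interaction of -1.63 ± 0.31 (SE) had an adjusted p of 0.211. With an offset of 32 before the logarithm it was -1.08 and passed (0.00357), and it also passed on the square root scale (0.0415). Both settings give less weight to changes among dim values, and the mutant values were dim (9.43 at most). These passes therefore lend no support to a weaker response of ARR16 in the mutant.

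ARR15 (AT1G74890) had 24.0, 25.1 and 18.6 in arr10 arr12 with trans-zeatin, 5.97, 8.75 and 4.96 in arr10 arr12 with DMSO, 71.0, 62.9 and 43.6 in wild type with trans-zeatin, and 12.6, 8.72 and 10.2 in wild type with DMSO. Both genotypes responded, by 1.15 in the mutant (limma adjusted p = 0.0143) and 1.92 in the wild type (6.69e-05). The interaction of -0.77 ± 0.25 (SE) did not pass (0.405). The type-B regulators ARR18 and ARR19, listed as RR18 and RR19, had interactions of -0.25 and 0.14 in the fit of all probe sets, and neither passed (adjusted p = 0.799 and 0.911). The probe set 258739_s_at, which the annotation gives to several genes, had the smallest adjusted p among the dim ones reported here (-1.46 ± 0.22, SE; 0.0545). Its signal averaged 5.82 ± 0.863 in arr10 arr12 with trans-zeatin, 0.902 ± 0.724 in arr10 arr12 with DMSO, 78.0 ± 17 in wild type with trans-zeatin and 11.8 ± 1.07 in wild type with DMSO (SD, n = 3 each). As ratios of these means, the rise was about alike in both genotypes. The mutant DMSO arrays (0.685, 0.312 and 1.71) lay near 0, so the mutant ratio is poorly determined. Every mutant value, 6.43 at most, lay under the offset of 6.65 added before the logarithm, which shrinks the mutant response more. The values of 258739_s_at therefore show neither a weaker nor an equal response in the mutant. A filter on mean linear signal took the total of calls to 6 with 258739_s_at. The probe set clears that filter only through its wild-type trans-zeatin arrays, so that pass lends it no support.

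Across the gene lists, EXPA15 was the one member called among 21 lists with at least 2 tested members. Of 13 tested expansins, 1 passed, beside 0.0366% of all tested probe sets. At an unadjusted p under 0.05 there were 2 positive and 1 negative (23.1% of the members, beside 10.8% of all tested). The list's median interaction was -0.049, beside -0.023 for all tested probe sets. The positive pair were the root hair expansins EXPA7 (0.48, limma adjusted p = 0.412) and EXPA18 (0.45, 0.401). EXPA7 had 66.0, 61.4 and 73.0 in arr10 arr12 with trans-zeatin, 61.6, 97.2 and 76.3 in arr10 arr12 with DMSO, 75.9, 69.5 and 66.9 in wild type with trans-zeatin, and 138, 109 and 105 in wild type with DMSO, where the wild-type DMSO arrays lay above all others. EXPA4 and EXPB3, the brightest expansins, had interactions of -0.23 and -0.21 that did not pass.

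Of 17 CC-type glutaredoxins with a probe set, 7 were tested and none passed. AT4G15680, ROXY2 and AT3G62930 (-0.47) had negative values at an unadjusted p under 0.05 (42.9% of those tested, beside 6.4% negative over all tested). The median over the 7 was 0.125, and over all 17 probe sets without the filter it was -0.194, so the sign of the median depended on which members were kept. Close paralogs in this family may share hybridization signal.

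The NPF2 subfamily genes clustered on chromosome 3, relatives of a nitrate exporter of the root, had 3 tested members with interactions of -0.85 (AT3G45680), -0.58 (AT3G45700) and -0.29 (AT3G45710), and none passed. AT3G45700 had 111 ± 6.11 in arr10 arr12 with trans-zeatin, 59.5 ± 15.1 in arr10 arr12 with DMSO, 235 ± 28.6 in wild type with trans-zeatin and 82.6 ± 6.97 in wild type with DMSO (SD, n = 3 each). It responded in both genotypes, by 0.85 in the mutant (limma adjusted p = 0.00739) and 1.43 in the wild type (1.74e-05). The 8 other NPF transporters tested had a median of 0.113 and none at an unadjusted p under 0.05, beside 10.8% of all tested. The same neighbours on the chromosome may share signal as well.

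Among 41 tested class III peroxidases, which cross-link or loosen the wall, none passed, and 6 positive and 3 negative had an unadjusted p under 0.05 (22% of the members, beside 10.8% of all tested), with a median of 0.099. AT4G33420 had 732, 473 and 354 in arr10 arr12 with trans-zeatin, 670, 631 and 687 in arr10 arr12 with DMSO, 246, 202 and 208 in wild type with trans-zeatin, and 576, 598 and 492 in wild type with DMSO. Wild type with trans-zeatin lay below all others, and the wide spread of the mutant trans-zeatin arrays gave its interaction of 0.91 an SE of 0.25 (limma adjusted p = 0.252). AT2G41480 had 0.77 and AT2G34060 had -0.79. Of 19 BAHD acyltransferases tested, none passed, 1 positive and 2 negative lay under an unadjusted p of 0.05 (15.8%, beside 10.8% of all tested), and the median was 0.005.

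Of 21 ribosome biogenesis genes listed, 4 had a named probe set. All 4 were negative at an unadjusted p under 0.05, beside 6.4% of all tested probe sets, and none passed. They were AT4G16630, a DEAD-box helicase (-0.97, limma adjusted p = 0.235), the PESCADILLO gene AT5G14520 (-0.44, 0.286), the BOP1 homolog AT2G40360 (-0.39, 0.407) and AT3G22660, an EBP2-family gene (-0.35, 0.454). This list was added after 2 ribosome-related genes had been seen among the smallest p-values, so its count describes these arrays and no more. AT5G14520 had 661, 590 and 700 in arr10 arr12 with trans-zeatin, 732, 666 and 663 in arr10 arr12 with DMSO, 686, 651 and 672 in wild type with trans-zeatin, and 471, 522 and 577 in wild type with DMSO. The wild-type DMSO arrays, the ones that stood apart on the first principal component, lay below the other 9, which overlapped. Leaving out each wild-type DMSO array in turn gave a list median of -0.366 to -0.492.

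**Figure D4:**
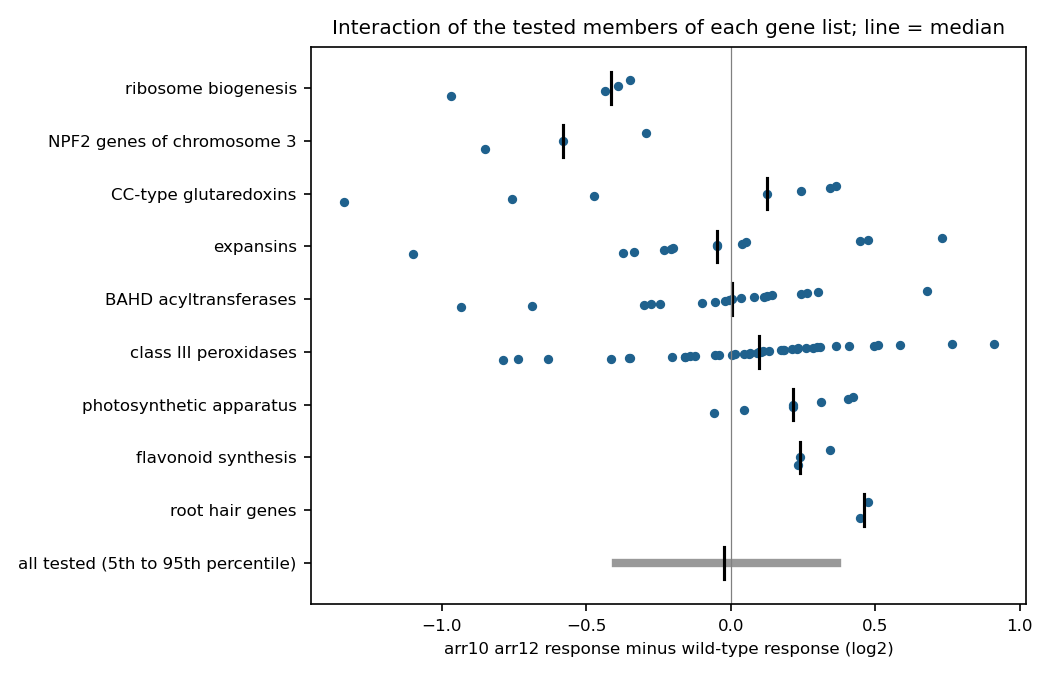
Interaction on the log2 scale (x axis) of every tested member of 9 gene lists, 1 point for each probe set, with a line at the list median and, at the bottom, the 5th to 95th percentile of all 13647 tested probe sets. The medians run from -0.58 for the NPF2 genes to 0.46 for the root hair genes, beside -0.023 for all.

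No tested gene of photosynthesis or anthocyanin synthesis passed for the interaction, although several differed in level between genotypes. The 7 tested photosynthetic probe sets had a median interaction of 0.217, with 2 positive at an unadjusted p under 0.05, beside 4.41% positive over all tested. The plastid gene psbM, tested but not on this list, had an interaction of -1.06 that did not pass. RCA, the Rubisco activase, differed by -0.55 between arr10 arr12 and wild type under DMSO (limma adjusted p = 0.0134) and by -0.50 under trans-zeatin (0.0264), and its interaction was 0.05. PSAE-1, a photosystem subunit, had the wild-type DMSO arrays above the other 9 (99.7 ± 17.4 in arr10 arr12 with trans-zeatin, 107 ± 9.55 in arr10 arr12 with DMSO, 138 ± 21.2 in wild type with trans-zeatin and 198 ± 6.64 in wild type with DMSO; SD, n = 3 each), with an interaction of 0.41.

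DFR, the dihydroflavonol reductase of anthocyanin synthesis, had 23.8, 22.5 and 29.3 in arr10 arr12 with trans-zeatin, 29.7, 35.3 and 54.7 in arr10 arr12 with DMSO, 208, 191 and 168 in wild type with trans-zeatin, and 391, 354 and 242 in wild type with DMSO. The genotypes did not overlap under either treatment, with differences of -2.62 under trans-zeatin and -2.86 under DMSO (limma adjusted p = 7.83e-07 and 2.14e-07). Genotype differences passed for 309 probe sets under trans-zeatin (2.26%) and 671 under DMSO (4.92%). The interaction of DFR was 0.24 with a 95% interval of -0.32 to 0.80. UF3GT and AT4G14090, glycosyltransferases of the same pathway, had 0.23 and 0.34, and the 3 together had a median of 0.24 with none passing.

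None of the 9 cytokinin receptors and phosphotransfer proteins, 6 cytokinin response factors and 10 AP2/ERF factors listed had a named probe set. UGT76C2 and UGT76C1, which glucosylate cytokinins, had interactions of -0.07 (95% interval -0.54 to 0.41) and 0.26 (-0.12 to 0.65). LBD16, an auxin-induced regulator of lateral root initiation, fell in both genotypes, with responses of -0.61 in the mutant (limma adjusted p = 0.0105) and -0.95 in the wild type (6.54e-05), and its interaction of 0.34 did not pass (0.448). Across 31 UDP-glycosyltransferases, 13 glutathione transferases, 8 cytochrome P450 genes, 7 xyloglucan endotransglucosylases, 5 WRKY factors, 4 auxin early response genes and 4 cell cycle genes, none passed, and the medians ran from -0.112 to 0.136. The 2 pectin methylesterase genes tested had a median of -0.1, a list that was matched by symbol and does not hold AT5G62360. Of 73 ribosomal protein genes listed, 1 had a named probe set, with a value of -0.193, and AT2G32220 was not on that list. PYK10 had an interaction of 0.18.

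For each probe set the group whose mean lay farthest from the mean of the other 3 was recorded. Among the 1476 probe sets with an unadjusted interaction p under 0.05, this was arr10 arr12 with trans-zeatin in 9.49%, arr10 arr12 with DMSO in 10.4%, wild type with trans-zeatin in 28.3% and wild type with DMSO in 51.8%. Over all 13647 tested probe sets the shares were 18.9%, 17.6%, 23.9% and 39.7%. Of the 765 with wild type and DMSO as the odd group, 479 were negative and 286 positive. Leaving out wild-type DMSO replicate 1, 2 or 3 changed that share to 43.6%, 57.6% and 64.7%.

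Among the 24 probe sets made up of the 5 calls and the named genes of smallest p, 14 had wild type with trans-zeatin as the odd group, 8 wild type with DMSO, 1 arr10 arr12 with trans-zeatin and 1 arr10 arr12 with DMSO. Over all tested probe sets, the 3 arrays of wild type with trans-zeatin lay all above or all below the other 9 in 4.87% and those of wild type with DMSO in 7.66%, against 1.8% for arr10 arr12 with trans-zeatin and 2.37% for arr10 arr12 with DMSO.

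**Figure D5:**
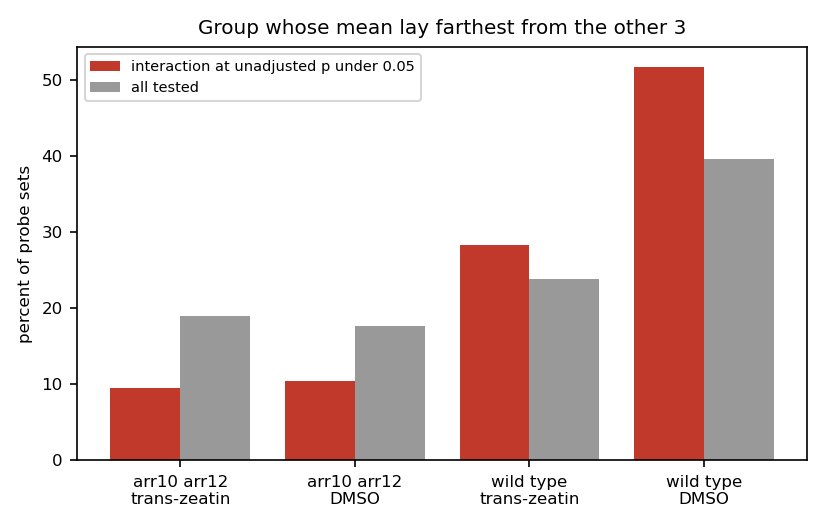
Percent of probe sets (y axis) for which each group had the mean farthest from the mean of the other 3, among probe sets with an unadjusted interaction p under 0.05 (red) and among all tested (grey). Wild type with DMSO is the tallest pair at 51.8% and 39.7%, and both mutant groups are lower in red than in grey.

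Among probe sets without a gene name, 264374_at had a form of its own, and it was singled out after its values were seen. It had 1.46, 4.61 and 0.828 in arr10 arr12 with trans-zeatin, 1.78, 4.12 and 3.09 in arr10 arr12 with DMSO, 235, 248 and 289 in wild type with trans-zeatin, and 145, 149 and 149 in wild type with DMSO. All 6 mutant values lay under the offset of 6.65 that was added before the logarithm, and the wild-type response was 0.77 (limma adjusted p = 0.00391). Its interaction of -0.89 did not pass (0.164).

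The 5 unnamed probe sets next in order of p were 264497_at (-0.60), 256650_at (-0.82), 254216_at (0.66), 247991_at (-1.09) and 250413_at (-0.92), with adjusted p of 0.113 to 0.125. In 247991_at the signals were 80.0, 62.0 and 82.4 in arr10 arr12 with trans-zeatin, 57.4, 69.0 and 44.5 in arr10 arr12 with DMSO, 107, 93.0 and 74.3 in wild type with trans-zeatin, and 28.4, 31.1 and 27.1 in wild type with DMSO. The wild-type DMSO arrays were below all others. Named genes with an interaction of at least 1 that did not pass also included AT3G57010, of the strictosidine synthase-like family (-1.17), the plastid gene psbM (-1.06), AT1G58170, of the dirigent family (-1.02), AT3G15630 (1.05) and AT5G10770, an aspartyl protease family gene (1.05), with adjusted p of 0.183 to 0.367.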

How the data were processed

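The deposited table holds 1 signal intensity per probe set and array, made by the authors with MAS5 and GCOS per the submitters' processing notes. The versions of these tools are not given in the sources used. The near-equal trimmed means show that arrays were already scaled, so values were used as deposited. No column of the table was left unused (0).

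Before log2, 6.65 was added to each value, the 25th percentile of all values other than controls. This understates changes of dim probe sets. Where 1 genotype is dimmer, its response shrinks more than that of the other, so an interaction can come out too large or too small. Testing was limited to probe sets with a mean log2 value (all 12 arrays) above the 40th percentile, a signal of 23.1. An earlier pass filtered on the mean linear signal, which gave 6 calls in place of 5; the filter on log values follows previous work on these data, and the other is kept as an alternative.

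Groups were compared with limma 3.58.1 in R 4.3.3, with 1 mean per group over all 12 arrays, an intensity trend, 2-sided tests and Benjamini-Hochberg adjustment. The test was tried on simulated data. No count of reads exists for arrays; the number of arrays limits precision.

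Of 22746 probe sets, 13513 had a single gene, 503 several and 8730 none in the annotation used; 7291 tested ones had a locus. Named are all calls, the 10 smallest p with a locus in each direction, the 6 largest average rises and falls, list members by mean signal, and the 5 next unnamed probe sets. Members and 28 lists were chosen with earlier results of these data known. Loci of the glutaredoxin, NPF2, BAHD, peroxidase and ribosome lists were added, and the lists and members named were cut down to 9 lists and at most 3 or 4 members, after interaction values had been seen, so they support nothing. Further genes with an interaction of at least 1, AT4G33420, AT2G41480, AT2G34060 and 264374_at were also chosen after their values were seen. Replicate numbers were not used as pairs, since nothing in the labels ties same-numbered arrays together and not every same-numbered pair deviated together.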

Additional observations from a re-analysis of the deposited data

Results flagged for a closer look

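In 5 probe sets the response to trans-zeatin differed between arr10 arr12 and wild type by the interaction test itself (limma, adjusted p of 0.00307 to 0.0212). The interaction was -1.80 for 264470_at, -1.39 for 252858_at, -1.26 for 264790_at, -1.10 for EXPA15 and 0.88 for 267461_at.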

How the results depend on the processing

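The 4 negative calls passed under all 25 alternatives run, with adjusted p up to 0.0231, and 267461_at under 16 of 25 (up to 0.12). The count of 5 calls was 4 without the filter and 4 without the intensity trend (0 positive in both), 7 with an offset of 32, 8 on the square root scale (7 negative), 6 with the filter on linear means (added after seeing the data), 22 with array weights (5 positive, 17 negative), and 7 with the replicate number as a block (2 positive, with AT3G47510 and AT3G45680 added). Leaving out 1 array gave 4 to 9 calls, 0 to 4 of them positive and 4 to 5 negative, with 9 without arr10 arr12 trans-zeatin replicate 2. Same-numbered arrays of different groups had correlated deviations of -0.072 to 0.337, above 0.1 in 9 of 18 pairs against 4 of 36 differently numbered pairs, and 9 of the 12 arrays correlated best with their own number. Of the 18 same-numbered pairs, 16 correlated positively. This is a hint of shared replicate structure from the data, not from the design. It falls short of every pair passing 0.1, but missing that bar does not show that the arrays were unpaired. Values of opposite sign belonged to genes that did not pass. AT2G36690 was at -0.052 with an offset of 32 and -0.22 on the square root scale, AT5G47980 at 0.0211 and AT2G34610 at -0.027 with array weights. With 1 array left out, values ran from -0.2752 to 0.343 for AT2G36690, -0.2125 to 0.2501 for AT5G47980, -0.2601 to 0.4054 for AT2G34610, -0.3533 to 0.0605 for AT1G49450, -0.2783 to 0.0829 for UGT76C2, -0.0153 to 0.6136 for GRX480, -0.0714 to 0.1824 for RCA and -0.0823 to 0.5055 for UF3GT. The NPF2 median was -0.294 without the filter and -0.774 without arr10 arr12 DMSO replicate 3, and the glutaredoxin median -0.421 with a filter on the highest group mean. Signal near background limits dim genes such as ARR16, whose call depended on the offset.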
